A study of Pinus armandii with 6 samples.

Results

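Sulfur, aromatic, branched-chain and lysine synthesis was described in seed kernels of Pinus armandii, a white pine grown for edible nuts. A unigene, a transcript assembled from the reads, was taken as a member if its KEGG pathways held cysteine and methionine, aromatic amino acid, branched-chain or lysine synthesis. It was left out if it also lay in any of 7 other central carbon or amino acid maps, or if its symbol was ACO or ACS with a number. The rule kept 207 of 65117 unigenes, out of 265 in the 4 maps. Of the 58 left out, 54 lay in another map and 4 went by symbol alone. By map the members numbered 127, 55, 23 and 14 in that order, and 12 lay in more than 1 map.

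The study compared 3 libraries of kernels from the late September harvest with 3 from late August. The labels call the libraries biological replicates and give neither a treatment nor a genotype. They do not say whether a library is 1 tree, 1 cone or a pool. The p-values thus rest on the spread among these libraries alone, and how much of it lies between trees is not known. In whole kernels, fewer cells of a type and less RNA per cell cannot be told apart.

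Plants draw methionine and lysine from aspartate, cysteine from serine and sulfide, and phenylalanine, tyrosine and tryptophan from chorismate, the end of the shikimate pathway. Leucine, isoleucine and valine are made by enzymes that share several steps. Methionine also feeds S-adenosylmethionine (SAM), the main methyl donor of the cell, whose methylthio group is returned to methionine by a salvage cycle. Seeds need these amino acids for storage protein, and animals cannot make the essential ones.

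Total counts ran from 12849649 to 17379628 per library. Across unigenes, Pearson's r of the log levels lay between 0.987 and 0.992 for libraries of 1 month and between 0.886 and 0.897 across months. Kernel identity was checked on storage genes. The storage proteins were detected in every library. The 3 vicilin unigenes summed to 602 to 633 CPM (counts scaled to the library's total in tested unigenes) in September and 342 to 352 CPM in August, and the 3 oleosin unigenes to 1084 to 1238 CPM in September and 2369 to 2625 CPM in August. Chlorophyll a/b-binding unigenes, 16 in number, summed to 133 to 163 CPM in September and 127 to 155 CPM in August. The 237 unigenes with a best hit in a short chosen list of non-plant genera summed to 55.4 to 83.6 CPM in September and 130 to 282 CPM in August. The list held no fungi or bacteria, so all non-plant reads were not counted. The part of these unigenes in the results was not tested. August replicate 2 stood apart, with 1042 unigenes of 10 counts or more found in it alone, against 4 to 19 in each other library.

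Of the 207 members, 136 passed the filter on low counts and were tested, and 71 were not, since their counts were low or lay in too few libraries. By the quasi-likelihood F test of edgeR, adjusted after Benjamini and Hochberg, 48 were higher in September, 47 were lower and 41 did not pass. The share that passed was 69.9% of the tested members, against 67.8% of all 23216 tested unigenes, so the count by itself does not set the members apart. The share higher was 35.3% of members against 35.4% of all unigenes, and the share lower was 34.6% against 32.5%. At least 2-fold higher were 22 members (16.2%), against 24.3% of all tested unigenes, and at least 2-fold lower were 12 (8.82%), against 12.4%. Both shares were below those of all tested unigenes, and the difference was not tested. The median log2 fold change, September over August, was -0.08 over members, also with low-count members at their bound, and 0.03 over all tested unigenes. In 100 members (73.5%) the libraries of the months did not overlap, against 72.9% of all tested unigenes. Summed FPKM (the authors' unit, scaled to library total and unigene length) over all members was 3998 ± 20.6 in September and 4058 ± 32.3 in August (SD, n = 3 each).

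Some enzymes had calls mostly in 1 direction, and those named here were picked after their calls were seen. Higher in September were 4 of 6 tested unigenes of SAM synthetase, with 1 lower, 5 of 6 of methionine salvage, with 0 lower, and 3 of 3 of methionine gamma-lyase. Lower were 4 of 5 of serine acetyltransferase, with 0 higher, and 5 of 6 of tyrosine aminotransferase, with 0 higher. Of all tested unigenes 35.4% were higher and 32.5% lower. Whether these enzymes, or any step or enzyme counted below, differ from that was not tested. Some steps were even, with 3 higher and 3 lower from aspartate to lysine, and 2 higher and 2 lower in both the tryptophan branch and the DNA methyltransferases. Others were uneven, such as methionine synthesis with 6 higher and 3 lower, and serine and cysteine synthesis with 4 higher and 8 lower. Single unigenes of one enzyme could move in opposite directions. Of 28 enzymes with more than 1 tested unigene, 13 had calls both ways, 7 only higher and 8 only lower. The share for groups of like size over all unigenes was not computed, so this does not set the members apart. All these counts are of single unigenes, also where several share a best hit, and are not counts of separate genes.

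**Figure D1:**
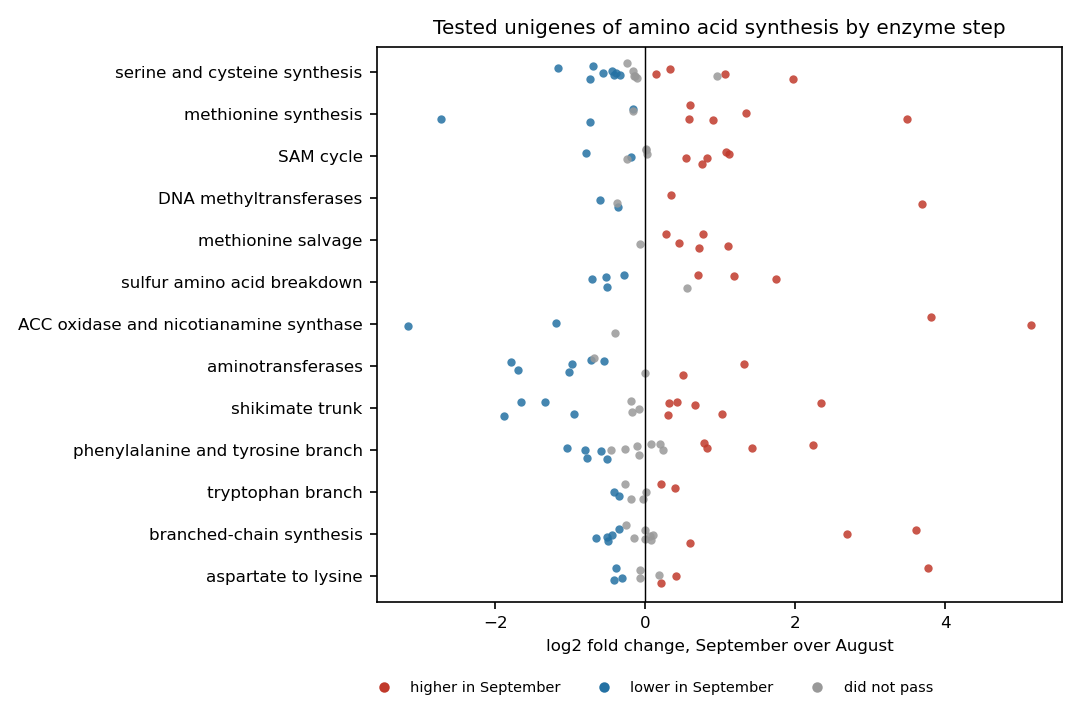
Log2 fold change, September over August, of 133 tested unigenes (points) by enzyme step, coloured by whether they passed the edgeR test; 3 others with nearly no counts in 1 month are left off. Methionine salvage has 5 higher and 0 lower, and the aminotransferases have 2 higher and 7 lower.

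Methionine synthesis had 10 tested members, 6 higher, 3 lower and 1 that did not pass. The most abundant was HMT-2 (Unigene0063530), a homocysteine S-methyltransferase, which makes methionine from homocysteine and S-methylmethionine. Its level was 324, 354 and 362 CPM in September kernels, against 558, 585 and 594 CPM in August kernels (log2 fold change -0.74, SE 0.0601, adjusted p = 3.5e-06). It was lower in every September library. The related HMT-1 (Unigene0011095) had 71.5, 72.9 and 74.7 CPM in September and 25.1, 30.6 and 31.1 CPM in August (log2 fold change 1.34, SE 0.0907, adjusted p = 1.1e-06). The months did not overlap for either unigene, and the directions were opposite. The best hit of HMT-1 is in Carpinus, a genus of broadleaved trees, and HMT-1 had counts in every library. It made up 25.7% of the enzyme's FPKM in September and 7.57% in August.

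Cobalamin-independent methionine synthase, which methylates homocysteine with a folate donor, had 5 tested members, 4 higher and 1 lower. Its main unigene, Os12g0624000 (Unigene0001713), had 436, 415 and 426 CPM in September and 251, 212 and 217 CPM in August (log2 fold change 0.91, SE 0.0705, adjusted p = 2.6e-06). All September libraries were above all August libraries. The unigene Os12g0623900 (Unigene0001068) went the other way, with 1.70, 2.30 and 2.60 CPM in September and 15.4, 15.6 and 12.96 CPM in August (log2 fold change -2.73, SE 0.192, adjusted p = 1.3e-06). Another unigene of that symbol (Unigene0002245) was higher (log2 fold change 0.59, SE 0.204, adjusted p = 0.0257). The remaining higher ones, Unigene0043327 and Unigene0073006, held on average 0.574% and 0.878% of the enzyme's FPKM in September. CGS1 (Unigene0060488), a cystathionine gamma-synthase that opens methionine synthesis from the aspartate family, had 23.2, 22.01 and 19.5 CPM in September and 14.7, 13.6 and 15.1 CPM in August (log2 fold change 0.58, SE 0.114, adjusted p = 0.00122). It was higher in September without overlap.

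The SAM cycle makes SAM from methionine and hydrolyses the product of methyl transfer. It had 11 tested members, 5 higher, 2 lower and 4 that did not pass. METK1 (Unigene0073414), the leading SAM synthetase, had 279, 255 and 262 CPM in September and 149.8, 149.8 and 149 CPM in August (log2 fold change 0.83, SE 0.0559, adjusted p = 1.0e-06). SAHH (Unigene0001953), an S-adenosylhomocysteine hydrolase, had 171, 152 and 167 CPM in September and 82.2, 68.9 and 79.9 CPM in August (log2 fold change 1.08, SE 0.0798, adjusted p = 1.8e-06). Both were higher in every September library than in any August library. The 2 lower members were a METK3 unigene and a further SAHH (Unigene0024070). By FPKM this SAHH was the more abundant one, with 83.4 ± 4.74 in September and 95.5 ± 6.15 in August (log2 fold change -0.19, SE 0.0761, adjusted p = 0.0464). The step had 0 lower calls without September replicate 3 or August replicate 2 and 1 without any other library. Summed FPKM of the step, untested members included, was 403 ± 13.3 in September and 296 ± 13.5 in August. In August replicate 2 the sum includes 14.3 FPKM of SAH1 (Unigene0070895) and 5.68 FPKM of eth-1 (Unigene0019153), found in that library alone.

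The cysteine and methionine map also holds DNA methyltransferases, the enzymes that use SAM to methylate cytosine. Of 5 tested members, 2 were higher and 2 lower. CMT3 (Unigene0074480), named after a chromomethylase that in Arabidopsis maintains methylation outside CG sites, had 59.8, 66.1 and 69.6 CPM in September and 5.61, 5.19 and 4.32 CPM in August (log2 fold change 3.69, SE 0.118, adjusted p = 1.8e-08). All September libraries lay far above all August libraries. This unigene held 67.3 ± 1.74% of the FPKM of the MET1 and CMT unigenes in September and 14.6 ± 2.28% in August. MET1B (Unigene0027304), of the type that maintains CG methylation, had 32.7, 35.3 and 36.4 CPM in September and 27.4, 26.7 and 28.1 CPM in August (log2 fold change 0.34, SE 0.0838, adjusted p = 0.00452). DMT1 (Unigene0069026), of the same type, had 11.4, 12.8 and 13.6 CPM in September and 18.1, 17.3 and 22.4 CPM in August (log2 fold change -0.61, SE 0.137, adjusted p = 0.00268). Neither overlapped between months, and their directions differed.

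Methionine salvage recovers methionine from the methylthioadenosine left over by polyamine, nicotianamine and ethylene synthesis. Of 6 tested members, 5 were higher in September, 0 lower and 1 did not pass. The acireductone dioxygenase PHYPADRAFT_128349 (Unigene0068412) had 319, 303 and 284 CPM in September and 139, 148 and 135 CPM in August (log2 fold change 1.10, SE 0.0644, adjusted p = 4.3e-07). MTK (Unigene0070470), the methylthioribose kinase, had 291, 275 and 276 CPM in September and 167, 162 and 166 CPM in August (log2 fold change 0.77, SE 0.0528, adjusted p = 1.2e-06). For these the months were clearly apart. RCOM_0711420 (Unigene0005835), a methylthioribose phosphate isomerase, had 64.9, 54.97 and 54.4 CPM in September and 36.6, 33.7 and 35.5 CPM in August (log2 fold change 0.72, SE 0.0885, adjusted p = 5.7e-05). POPTR_0001s40980g (Unigene0073806), a dehydratase-enolase-phosphatase, had 111, 138 and 97.7 CPM in September and 92.3, 80.4 and 82.1 CPM in August (log2 fold change 0.45, SE 0.116, adjusted p = 0.00630). All September values of both lay above their August values. September replicate 2 was the highest for the phosphatase, and without it the log2 fold change was 0.30 (adjusted p = 0.0168). MTN1 (Unigene0070002), the nucleosidase that opens the cycle, averaged 69.1 ± 3.67 FPKM in September and 72.5 ± 1.17 FPKM in August, a difference that did not pass (log2 fold change -0.07, SE 0.0626, adjusted p = 0.374). Summed FPKM of the step was 559 ± 27.3 in September and 355 ± 4.50 in August.

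Methionine gamma-lyase, which splits methionine into methanethiol, ammonia and 2-oxobutanoate, was higher in all 3 of its tested unigenes. These were all the higher calls of sulfur amino acid breakdown. With unigenes of the same best hit summed, that step had 1 higher call, so the 3 may not be separate genes. MGL (Unigene0061309) had 99.00, 84.6 and 99.3 CPM in September and 28.7, 33.8 and 22.4 CPM in August (log2 fold change 1.74, SE 0.134, adjusted p = 2.4e-06). A further MGL unigene (Unigene0061312) had 115, 92.8 and 111 CPM in September and 49.9, 45.3 and 44.3 CPM in August (log2 fold change 1.19, SE 0.0914, adjusted p = 2.4e-06). Neither overlapped between months. The other enzymes grouped as breakdown had 5 tested members, 4 of them lower. Among them, Os02g0773300 (Unigene0065204), a D-cysteine desulfhydrase, had 42.6, 40.4 and 45.6 CPM in September and 70.4, 75.3 and 64.98 CPM in August (log2 fold change -0.71, SE 0.0808, adjusted p = 3.3e-05). STR1 (Unigene0045743), a mercaptopyruvate sulfurtransferase, had 66.6, 60.2 and 63.1 CPM in September and 77.9, 78.5 and 74.7 CPM in August (log2 fold change -0.28, SE 0.0661, adjusted p = 0.00338).

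**Figure D2:**
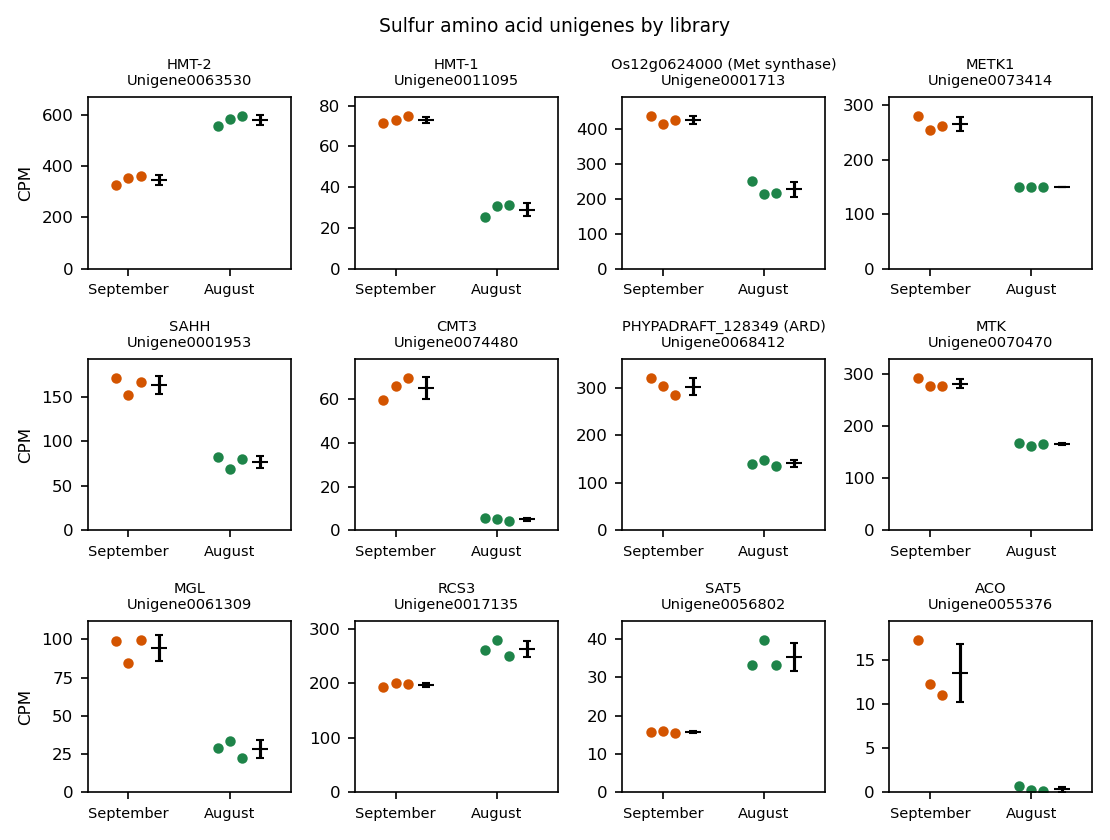
CPM in each library of 12 unigenes of sulfur amino acid metabolism, September left and August right, with the mean and SD (n = 3) as a bar beside the points. The months overlap in no panel, and HMT-2, RCS3 and SAT5 are the panels that are lower in September.

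Most unigenes of cysteine synthesis that passed were lower in September. Of 18 tested members of serine and cysteine synthesis, 4 were higher (22.2%), 8 lower (44.4%) and 6 did not pass. Of all tested unigenes 35.4% were higher and 32.5% lower, and the difference was not tested. Serine acetyltransferase, which activates serine and sets the pace of cysteine synthesis in plants, had 0 higher and 4 lower of 5 tested. SAT5 (Unigene0056802) had 15.9, 15.96 and 15.5 CPM in September and 33.1, 39.7 and 33.3 CPM in August (log2 fold change -1.16, SE 0.103, adjusted p = 6.3e-06). It was about as low in all 3 September libraries. O-acetylserine (thiol) lyase, which adds sulfide, had 1 higher and 3 lower of 5 tested. RCS3 (Unigene0017135) had 194, 200.2 and 199 CPM in September and 261, 279 and 250.3 CPM in August (log2 fold change -0.41, SE 0.0579, adjusted p = 1.3e-04). CYSK (Unigene0000531) had 109, 118 and 128 CPM in September and 175, 169 and 183 CPM in August (log2 fold change -0.57, SE 0.0701, adjusted p = 5.6e-05), and cys12 (Unigene0059855) had 58.8, 59.8 and 57.2 CPM in September and 96.9, 102 and 94.3 CPM in August (log2 fold change -0.74, SE 0.0628, adjusted p = 4.7e-06). The months did not overlap for any of them. OASB (Unigene0022053) was the exception within that enzyme, with 63.9, 59.1 and 61.5 CPM in September and 52.8, 46.7 and 47.1 CPM in August (log2 fold change 0.33, SE 0.0758, adjusted p = 0.00313). In serine synthesis, the enzyme 3-phosphoglycerate dehydrogenase had 3 higher and 0 lower of 6 tested. Its summed FPKM was 84.9 ± 12.5 in September and 72.3 ± 5.52 in August. The months overlapped, with 88.7, 95.1 and 70.8 FPKM in September and 67.0, 72.0 and 78.0 FPKM in August. PGDH1 (Unigene0042462), which did not pass, had 25.1, 31.8 and 7.94 FPKM of this in September and 8.85, 8.84 and 15.9 FPKM in August. PSAT1 (Unigene0069140), a phosphoserine aminotransferase, had 71.6, 73.8 and 72.8 CPM in September and 93.01, 91.3 and 91.6 CPM in August (log2 fold change -0.34, SE 0.0570, adjusted p = 4.5e-04). Summed FPKM of the step was 477 ± 13.5 in September and 605 ± 11.4 in August.

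SAM is also the source of ethylene, made by ACC oxidase, and of nicotianamine, a metal chelator. Within each enzyme the main unigenes differed in direction. ACO (Unigene0055376) had 17.2, 12.3 and 11.04 CPM in September and 0.686, 0.222 and 0.191 CPM in August (log2 fold change 5.14, SE 0.371, adjusted p = 1.6e-06). MAO1B (Unigene0046853) had 9.60, 3.57 and 4.26 CPM in September and 45.1, 49.3 and 61.1 CPM in August (log2 fold change -3.16, SE 0.290, adjusted p = 7.9e-06). The log2 fold change of ACO was 5.96 without August replicate 1. There was no overlap for either, although September replicate 1 was the highest of its month in both. Among the ACC oxidase unigenes that the rule kept, which leaves out symbols of ACO with a number, ACO held 67.1% of FPKM in September and 0.971% in August. Together the kept unigenes summed to 15.4 ± 4.53 FPKM in September and 30.8 ± 5.27 FPKM in August. One further unigene was nearly absent in August. This MAO1B unigene (Unigene0059501) had 112 counts in September and 1 in August, a ratio of 113 with a 95% counting interval of 19.9 to 4516. Summed with the unigenes of the same best hit, its log2 fold change was 1.41 (adjusted p = 0.00102). For nicotianamine synthase, CHLN (Unigene0010569) had 21.4, 15.8 and 13.2 CPM in September and 1.56, 0.964 and 1.02 CPM in August (log2 fold change 3.81, SE 0.260, adjusted p = 1.1e-06), and CHLN (Unigene0030642) had 32.7, 21.5 and 26.4 CPM in September and 65.8, 80.5 and 37.1 CPM in August (log2 fold change -1.19, SE 0.249, adjusted p = 0.00184). The August libraries of the second were widely spread.

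**Figure D3:**
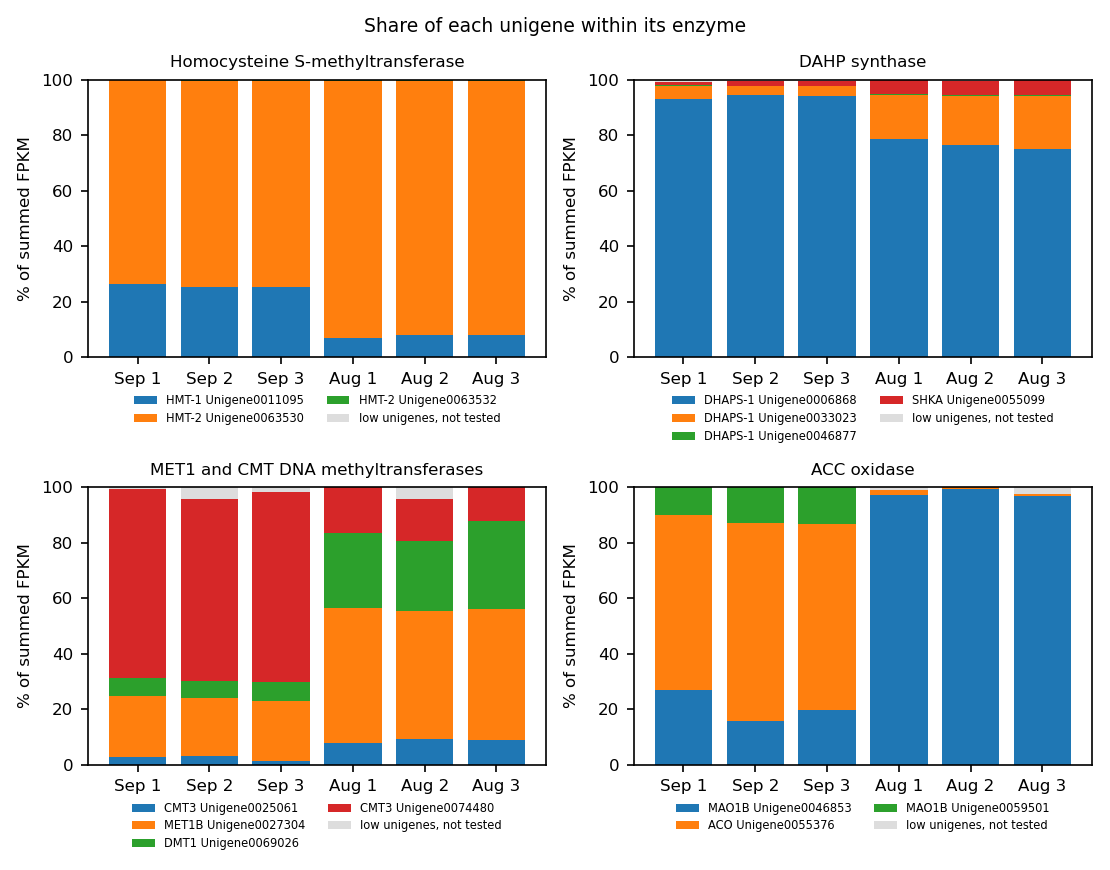
Percent of an enzyme's summed FPKM held by each of its unigenes, for 4 enzymes and the unigenes kept by the member rule, in September and August libraries. HMT-1, the main DHAPS-1, CMT3 (Unigene0074480) and ACO take larger shares in every September library than in any August library.

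Aminotransferases, of which the tyrosine aminotransferases alone lie in more than 1 of the maps, had 2 higher, 7 lower and 2 that did not pass among 11 tested. Tyrosine aminotransferase, which opens tyrosine breakdown and tocopherol synthesis, had 0 higher and 5 lower of 6 tested. Its main unigene, At5g53970 (Unigene0026938), had 141, 159.7 and 164 CPM in September and 240.2, 265 and 265 CPM in August (log2 fold change -0.73, SE 0.0716, adjusted p = 1.3e-05). A NAAT1 unigene (Unigene0026937) had 28.2, 29.96 and 25.1 CPM in September and 94.3, 97.04 and 98.8 CPM in August (log2 fold change -1.80, SE 0.0793, adjusted p = 9.8e-08), and a further NAAT1 (Unigene0062944) had 3.20, 2.07 and 2.37 CPM in September and 8.55, 7.56 and 8.77 CPM in August (log2 fold change -1.70, SE 0.216, adjusted p = 6.9e-05). All September libraries were below all August libraries. SUR1 (Unigene0026939) had 0 counts in September and 58 in August, which is at least 19.1-fold lower against a floor of 3 counts over the September libraries. The unigenes of the best hit that SUR1 shares with NAAT1 (Unigene0026937), taken as 1 sum, differed by -0.92 on the log2 scale (adjusted p = 1.5e-06). The sum was lower by far less than SUR1 alone, and by less than NAAT1 (Unigene0026937) alone. The 5 lower calls of tyrosine aminotransferase are thus not all of separate best hits. AAT (Unigene0063259), a prokaryotic-type aspartate aminotransferase that in plants also acts on prephenate, had 38.3, 34.9 and 37.1 CPM in September and 69.1, 68.3 and 80.5 CPM in August (log2 fold change -0.98, SE 0.0852, adjusted p = 5.4e-06). ISS1 (Unigene0070481), an aromatic aminotransferase named in Arabidopsis, had 234, 248 and 258 CPM in September and 258, 246 and 239 CPM in August and did not pass (log2 fold change -0.01, SE 0.0589, adjusted p = 0.933). Summed FPKM of the aminotransferases was 290.4 ± 10.1 in September and 410.3 ± 5.45 in August.

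The shikimate trunk had 13 tested members, 6 higher, 4 lower and 3 that did not pass. DAHP synthase, which opens the pathway, was split between unigenes. DHAPS-1 (Unigene0006868), the most abundant member of the aromatic map, had 520.1, 609 and 625 CPM in September and 382, 383 and 347 CPM in August (log2 fold change 0.66, SE 0.0771, adjusted p = 4.1e-05). A second DHAPS-1 (Unigene0033023) had 26.01, 23.05 and 23.3 CPM in September and 81.5, 91.7 and 93.4 CPM in August (log2 fold change -1.88, SE 0.0852, adjusted p = 1.1e-07). The first was above all of its August values in every September library, and the second below. The first held 94.0% of the enzyme's FPKM in September and 76.8% in August. SHKA (Unigene0055099), also a DAHP synthase, had 7.69, 12.4 and 11.8 CPM in September and 25.7, 27.6 and 27.8 CPM in August (log2 fold change -1.34, SE 0.165, adjusted p = 5.7e-05).

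The later steps of the trunk were mixed. DHQS (Unigene0061755), the dehydroquinate synthase, averaged 64.4 ± 1.92 FPKM in September and 68.9 ± 1.68 FPKM in August and did not pass (log2 fold change -0.09, SE 0.0539, adjusted p = 0.160). EMB3004 (Unigene0008059), the dehydratase and dehydrogenase that yields shikimate, had 21.3, 17.3 and 18.8 CPM in September and 9.54, 8.67 and 9.97 CPM in August (log2 fold change 1.02, SE 0.130, adjusted p = 7.3e-05), and all 3 tested unigenes of that enzyme were higher. SK3 (Unigene0072215), a shikimate kinase, had 28.9, 24.1 and 27.1 CPM in September and 48.3, 51.1 and 55.1 CPM in August (log2 fold change -0.95, SE 0.0935, adjusted p = 1.3e-05). These differed in direction and did not overlap. EPSPS-1 (Unigene0050022), the enzyme that glyphosate blocks, had 79.5, 79.2 and 77.4 CPM in September and 60.7, 65.9 and 65.04 CPM in August (log2 fold change 0.30, SE 0.0633, adjusted p = 0.00181). CS1 (Unigene0066801), the main chorismate synthase unigene, had 57.7, 68.6 and 64.6 CPM in September and 77.2, 70.1 and 68.3 CPM in August and did not pass (log2 fold change -0.17, SE 0.0826, adjusted p = 0.0853). It passed as lower with no filter on low counts and without September replicate 2 or August replicate 3, with adjusted p from 0.0471 to 0.0487. The other tested unigene of that enzyme, CS2 (Unigene0000788), passed as lower (log2 fold change -1.65). CS2 held 2.84% of the enzyme's FPKM in September and 7.70% in August.

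Beyond chorismate, the phenylalanine and tyrosine branch had 16 tested members, 4 higher, 5 lower and 7 that did not pass. Chorismate mutase, its first enzyme, was higher in both tested unigenes. CM1 (Unigene0061469) had 9.94, 7.03 and 8.51 CPM in September and 1.31, 1.56 and 2.48 CPM in August (log2 fold change 2.24, SE 0.271, adjusted p = 5.0e-05). ADT2 (Unigene0000994), an arogenate dehydratase that yields phenylalanine, had 10.01, 12.04 and 14.03 CPM in September and 4.05, 4.97 and 4.45 CPM in August (log2 fold change 1.42, SE 0.178, adjusted p = 6.6e-05). Both were higher in every September library. ADT6 (Unigene0073581), the most abundant arogenate dehydratase, had 53.7, 51.7 and 52.7 CPM in September and 72.7, 76.3 and 75.3 CPM in August (log2 fold change -0.50, SE 0.0626, adjusted p = 6.0e-05). TYRAAT2 (Unigene0072092), an arogenate dehydrogenase that yields tyrosine, had 13.9, 14.3 and 14.3 CPM in September and 21.5, 21.9 and 29.6 CPM in August (log2 fold change -0.78, SE 0.139, adjusted p = 6.4e-04). A more abundant TYRAAT2 (Unigene0032325) averaged 31.8 ± 0.256 FPKM in September and 34.4 ± 0.955 FPKM in August and did not pass (log2 fold change -0.11, SE 0.0614, adjusted p = 0.151).

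The tryptophan branch had 8 tested members, 2 higher, 2 lower and 4 that did not pass. PAT1 (Unigene0042899), the anthranilate phosphoribosyltransferase, had 79.5, 79.5 and 83.3 CPM in September and 81.5, 83.5 and 81.9 CPM in August and did not pass (log2 fold change -0.03, SE 0.0584, adjusted p = 0.696). TSA1 (Unigene0071868), the alpha subunit of tryptophan synthase, had 52.8, 50.1 and 53.1 CPM in September and 44.2, 36.1 and 38.4 CPM in August (log2 fold change 0.39, SE 0.0881, adjusted p = 0.00277). IGPS (Unigene0015467), indole-3-glycerol-phosphate synthase, had 26.7, 25.6 and 31.5 CPM in September and 33.9, 39.1 and 38.8 CPM in August (log2 fold change -0.42, SE 0.104, adjusted p = 0.00489). The months did not overlap for TSA1 or IGPS. The branch had 1 higher call without September replicate 1 or 3 or August replicate 1 or 2, 1 lower call without September replicate 2, and 4 lower calls without August replicate 3.

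**Figure D4:**
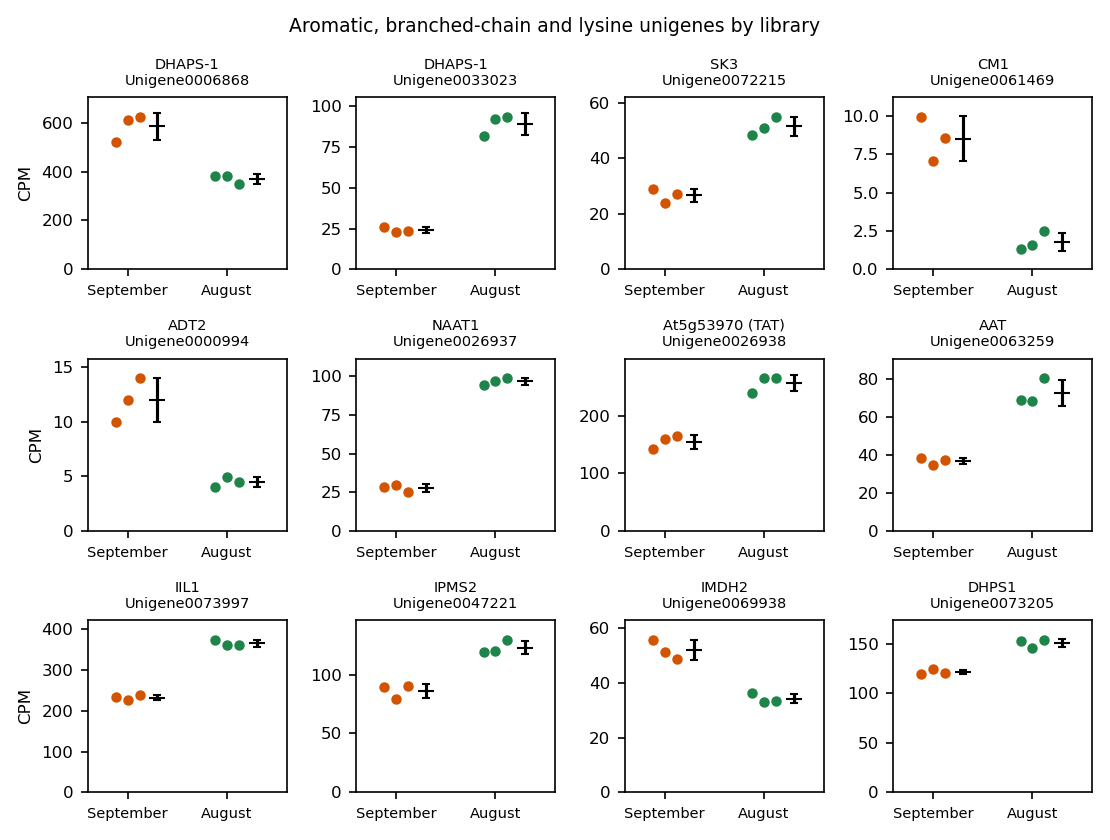
CPM in each library of 12 unigenes of aromatic, branched-chain and lysine synthesis, September left and August right, with the mean and SD (n = 3) as a bar. The 2 DHAPS-1 unigenes move in opposite directions, and the NAAT1, IIL1 and DHPS1 values are lower in every September library.

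Branched-chain synthesis had 15 tested members, 3 higher, 5 lower and 7 that did not pass. The abundant unigenes of the first leucine steps were lower. IIL1 (Unigene0073997), the large subunit of isopropylmalate isomerase, had 233, 226 and 239 CPM in September and 375, 359.9 and 362 CPM in August (log2 fold change -0.65, SE 0.0522, adjusted p = 3.2e-06). SSU1 (Unigene0044766), its small subunit, had 62.2, 59.98 and 61.96 CPM in September and 81.3, 81.99 and 86.8 CPM in August (log2 fold change -0.44, SE 0.0622, adjusted p = 1.4e-04). IPMS2 (Unigene0047221), the 2-isopropylmalate synthase that commits carbon to leucine, had 89.4, 79.6 and 89.9 CPM in September and 119, 119.6 and 129.7 CPM in August (log2 fold change -0.51, SE 0.0697, adjusted p = 1.1e-04). None of these overlapped between months. IMDH2 (Unigene0069938), the dehydrogenase that follows in leucine synthesis, was the opposite, with 55.8, 51.3 and 48.6 CPM in September and 36.1, 33.1 and 33.5 CPM in August (log2 fold change 0.60, SE 0.0816, adjusted p = 1.1e-04).

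Threonine dehydratase, a step of isoleucine synthesis, had 1 lower of 2 tested. TD1 (Unigene0071974), a threonine dehydratase that feeds isoleucine, had 118, 124 and 121 CPM in September and 159.9, 170.3 and 182 CPM in August (log2 fold change -0.49, SE 0.0634, adjusted p = 7.5e-05). A second TD1 (Unigene0010014) had 93.7, 98.4 and 127 CPM in September and 139, 115 and 128 CPM in August and did not pass (log2 fold change -0.26, SE 0.113, adjusted p = 0.0621). It passed as lower with the replicate block, with DESeq2, with no filter on low counts, and without September replicate 3 or August replicate 2, with adjusted p from 0.00449 to 0.0437. The steps shared by the branched-chain amino acids mostly did not pass. AHRI (Unigene0070535), the main ketol-acid reductoisomerase unigene, had 329, 339.8 and 373 CPM in September and 341, 325 and 334 CPM in August (log2 fold change 0.06, SE 0.0607, adjusted p = 0.415). Its months overlapped. A second AHRI of low abundance (Unigene0031802), with 52 counts in September and 4 in August, was higher (log2 fold change 3.62, SE 0.772, adjusted p = 0.00201). The acetolactate synthase large subunit had 1 higher, 1 lower and 2 that did not pass of 4 tested. The lower one, ALS (Unigene0074921), had 27.9, 26.7 and 27.1 CPM in September and 29.1, 36.6 and 38.7 CPM in August (log2 fold change -0.35, SE 0.112, adjusted p = 0.0177). The higher one, a less abundant ALS (Unigene0067058), had 4.43, 5.70 and 4.18 CPM in September and 0.811, 0.815 and 0.572 CPM in August (log2 fold change 2.70, SE 0.295, adjusted p = 2.6e-05). Summed with the unigenes of the same best hit, the log2 fold change was -0.00 (adjusted p = 0.991). Summed FPKM of the pathway was 541 ± 14.0 in September and 658 ± 14.8 in August.

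Lysine synthesis from aspartate had 9 tested members, 3 higher, 3 lower and 3 that did not pass. DHPS1 (Unigene0073205), the dihydrodipicolinate synthase that commits carbon to lysine, had 119.8, 124 and 121 CPM in September and 152, 146 and 154 CPM in August (log2 fold change -0.31, SE 0.0548, adjusted p = 5.8e-04). The next enzyme, DAPB1 (Unigene0024601), had 55.6, 44.5 and 57.8 CPM in September and 78.8, 67.1 and 65.2 CPM in August (log2 fold change -0.42, SE 0.110, adjusted p = 0.00647). The unigene asd (Unigene0070089), for aspartate-semialdehyde dehydrogenase, had 47.5, 41.5 and 40.2 CPM in September and 59.4, 53.1 and 56.8 CPM in August (log2 fold change -0.39, SE 0.0854, adjusted p = 0.00231). All 3 were lower without overlap. AK1 (Unigene0015519), an aspartate kinase, had 51.6, 50.5 and 46.9 CPM in September and 40.4, 35.7 and 36.5 CPM in August (log2 fold change 0.41, SE 0.0806, adjusted p = 0.00130). AKHSDH2 (Unigene0055674), a fused aspartate kinase and homoserine dehydrogenase, had 87.2, 90.98 and 83.9 CPM in September and 83.03, 71.9 and 72.3 CPM in August (log2 fold change 0.21, SE 0.0743, adjusted p = 0.0314). The AKHSDH2 call was lost with no filter on low counts and without September replicate 1 or 2 or August replicate 2 or 3, with adjusted p from 0.0649 to 0.156. The September values of both lay above their August values. LYSA1 (Unigene0034984), which makes lysine, had 100.2, 120.4 and 109 CPM in September and 109, 99.7 and 137 CPM in August and did not pass (log2 fold change -0.07, SE 0.114, adjusted p = 0.585). DAP (Unigene0004159), a diaminopimelate aminotransferase of low abundance, had 2.93, 3.17 and 2.37 CPM in September and 0.125, 0.222 and 0.254 CPM in August (log2 fold change 3.77, SE 0.399, adjusted p = 2.1e-05). Summed with the unigenes of the same best hit it gave 0.35 (adjusted p = 0.0138).

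Most of the 71 untested members held few counts, and a set with more was found in 1 library. In August replicate 2 alone, 20 members had counts, 1256 in all, against 1 to 4 members and 1 to 9 counts in each other library. SAH1 (Unigene0070895), an S-adenosylhomocysteine hydrolase, had 394 counts there and 0 in the other 5. The methionine synthase met26 (Unigene0047195) had 350 counts there, the homocitrate synthase lys1 (Unigene0026446) 210 and the SAM synthetase eth-1 (Unigene0019153) 111, each with 0 in the others. Of the 20, 18 had a best hit in Quercus or Carpinus, genera of broadleaved trees. Symbols such as met26, eth-1 and lys1 are names used in fungi, and lys1 belongs to the aminoadipate route to lysine, known from fungi. Members with such hits were also found in September: 8 with a Quercus or Carpinus best hit had counts in September alone, 35, 30 and 28 in the 3 libraries, among them a met26 (Unigene0046688) with 26 counts, an eth-1 (Unigene0019154) with 19 and a lys1 (Unigene0063336) with 4. The aminoadipate route had 3 members and 0 tested. The source of these reads was not tested. Without August replicate 2, 90 members passed, and 85 of the 95 calls were among them in the same direction.

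**Figure D5:**
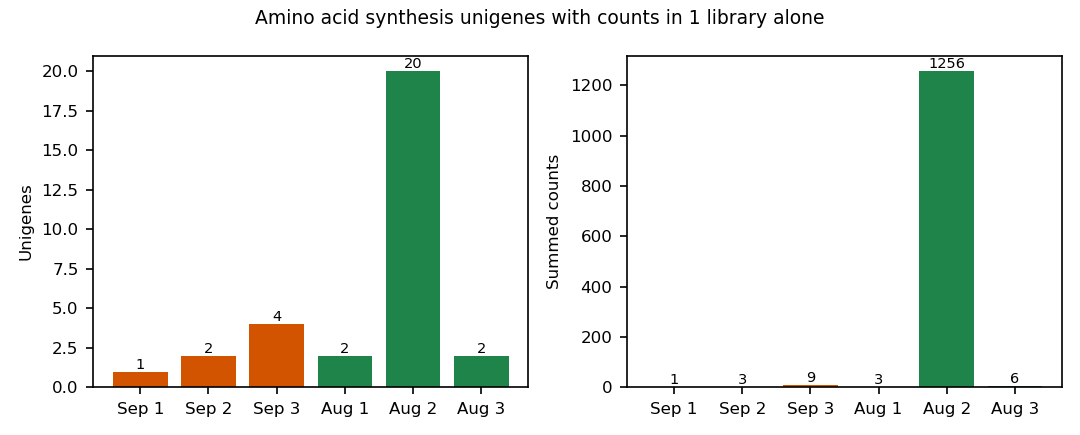
Number of member unigenes with counts in 1 library alone (left) and their summed counts (right), for September and August libraries. August replicate 2 has 20 unigenes and 1256 counts, against at most 4 unigenes and 9 counts elsewhere.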

How the data were processed

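RNA was sequenced from 6 kernel libraries, 3 per harvest. The submitters' processing notes name fastp for trimming and RSEM for quantification, without versions. No assembler, annotation program or strandedness is stated in the sources used here. Per the file headers, the deposited values are unnormalized estimated counts per unigene and FPKM computed by the authors. Rounding affected 8 of 390702 count values. Reads of one gene, or of near-identical copies, can be divided among unigenes.

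Tests used edgeR 4.0.16 in R 4.3.3 with TMM factors, filterByExpr by month (minimum count 10, minimum total count 15), the quasi-likelihood F test, and p-values adjusted by Benjamini-Hochberg (threshold 0.05) over all 23216 tested unigenes. CPM include the TMM factor. FPKM compare levels between unigenes and were not tested. The pipeline was tested on simulated data. Floors of 3 counts and exact 95% intervals cover counting error only.

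The members, enzyme groups and lists were chosen with earlier results of these data known. Named unigenes are, per map, the 5 most abundant and the 3 largest passing rises and falls with a mean of at least 5 CPM and no overlap, and the most abundant of each step. Further unigenes were named after their values were seen. Alternatives were RLE factors, DESeq2 1.42.0, no filter, a replicate block, unigenes with the same best hit summed, and leaving out each library.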

Additional observations from a re-analysis of the deposited data

How the results depend on the processing

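Across the alternatives, 95 members passed with the settings reported, 93 with RLE factors, 89 with DESeq2, 110 with no filter on low counts and 89 to 95 with each library left out, and none of the 95 calls had the other sign in these. Of the 95 calls, 80 held in all 6 fits that left out a library and 15 did not. With the replicate block, 93 members passed, 91 of them calls already made, and the lower calls of the SAM cycle numbered 1 in place of 2. Same-numbered libraries deviated together weakly (r = 0.0924, 0.0430 and 0.0300), and other pairs of the 2 months had r from -0.0862 to 0.0426. With 3 libraries per month these values cannot show whether the numbers pair libraries, so this block is only a check. Lower calls of the SAM cycle numbered 1 with RLE factors, 0 with DESeq2 and 0 with unigenes of the same best hit summed, and 0 to 1 with a library left out. With summing, the SAM cycle had 3 higher calls in place of 5, and sulfur amino acid breakdown 1 in place of 3. With no filter, lower calls numbered 8 in the branched-chain map and step in place of 5, 7 in the lysine map in place of 3, 5 from aspartate to lysine in place of 3, 2 in the aminoadipate route in place of 0, and 5 in methionine synthesis in place of 3; more unigenes are tested there. The tryptophan branch had 1 to 2 higher and 1 to 4 lower calls with a library left out. The log2 fold change reversed for ISS1 (0.0267 with summing, -0.0594 to 0.0334 with a library left out), PAT1 (0.00548 with summing) and LYSA1 (-0.187 to 0.0410 with a library left out), none of which passed, and for ALS Unigene0067058 (-0.000815 with summing). The cause was not tested. Among single members, TD1 Unigene0010014 and CS1 passed, and AKHSDH2 did not, under some alternatives, as given with their values. The 71 untested members had low counts or counts in too few libraries.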
